A study of Drosophila melanogaster with 3 samples.

Results

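Transposable elements (TEs) are mobile DNA sequences that copy or move themselves to new places in the genome. The calls described here are TE insertions in adult females of the *Drosophila melanogaster* strain Oregon-R w1118 (ORw1118) that lie near the centromeres or on chromosome 4. Their positions alone chose them. A call was taken if it started at or beyond 19.5 Mb on 2L, 20.5 Mb on 3L or 20 Mb on X, at or before 7 Mb on 3R, or anywhere on chromosome 4. The rule took 217 of 1702 calls: 47 on 2L, 70 on 3L, 58 on 3R, 26 on X and 16 on chromosome 4. The 201 calls on the 4 arms are called window calls, and they were set against the 1144 calls on the rest of 2L, 3L, 3R and X. All positions are those of the Release 6 genome.

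Genomic DNA came from 100 females for each of 3 biological replicates, raised at 25°C on cornmeal medium with yeast extract, and *w1118* is an allele of *white*, an eye colour gene. The reads of the replicates had been pooled before the calls were made, so the data hold 1 set of calls, with no spread between replicates. Each call is an interval between the genomic ends of split reads, which are reads that match the genome on one side and a TE family on the other. A pair of readouts goes with a call: the number of supporting reads, and the number of reference reads, which cross the site without a TE and were normalized before deposit. The coverage ratio is supporting reads over reference reads plus 1, and 3 is the minimum the study used for a call of high confidence. A second list held calls from the same pooled reads after overlapping pairs had been merged and trimmed to 1 length. Intervals given below are 95% intervals that cover counting error only and treat each call as independent.

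Pericentromeric heterochromatin (PCH) is the block of satellite repeats and TEs that surrounds each centromere. Its nucleosomes carry di- and trimethylated lysine 9 of histone H3, which is bound by the protein HP1a, and it recombines little. Chromosome 4 is a small autosome that carries the same marks over most of its genes. The rule uses distance along the assembly, and no measurement of chromatin entered it. Of genes listed by hand as lying in or beside PCH, 25 of 25 fell inside the windows. Among them were *lt*, a vesicle-sorting gene of 2L heterochromatin, and *su(f)*, an mRNA 3′ end processing gene of X heterochromatin. The list held only genes of arms that have a window, and some, such as *Lar* on 2L, lie close to the window edge. The count could therefore hardly fail, and it does not show how much of the windows is PCH.

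Window calls were less dense than calls elsewhere on the same arms, and the shortfall lay next to the centromeres. The windows held 9.15 calls per Mb (7.93 to 10.5), against 13.4 calls per Mb on the rest of the arms (12.7 to 14.3). The ratio of the densities was 0.680 (0.583 to 0.791). Lengths were counted from the first base of each arm to the end of its last annotated gene, and the length on which reads can be placed was not measured. The 3R window therefore ran to the first base of the assembled arm, and its first call lay 0.556 Mb from there. The other windows ended at an annotated gene. The ratio was 0.599 on 3L (0.456 to 0.778), 0.615 on 3R (0.457 to 0.814) and 0.586 on X (0.375 to 0.878). On 2L the window held 12.0 calls per Mb and the rest 12.1 calls per Mb, with a ratio of 0.992 (0.709 to 1.36).

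Each window was then divided at its midpoint, a division chosen after the calls had been seen, into an outer part and an inner part next to the centromere. The 4 outer parts together held 158 calls, or 14.4 per Mb, and their density was 1.07 times that of the rest (0.900 to 1.26). The 4 inner parts held 43 calls, or 3.91 per Mb, and their density was 0.291 times that of the rest (0.210 to 0.395). On 3L the inner part held 11 calls in 3.76 Mb, against 59 in the outer part. On 3R it held 7 calls in 3.50 Mb, against 51 in the outer part, and on X 5 calls in 1.77 Mb, against 21. On 2L it held 20 calls, against 27 in the outer part, and 13 of those 20 were short intervals of the kind described below. The longest stretch of a window with no call ran for 1.42 Mb on 3L, between a *rover* call at 25750146 and an *HMS-Beagle* call at 27171886.

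**Figure D1:**
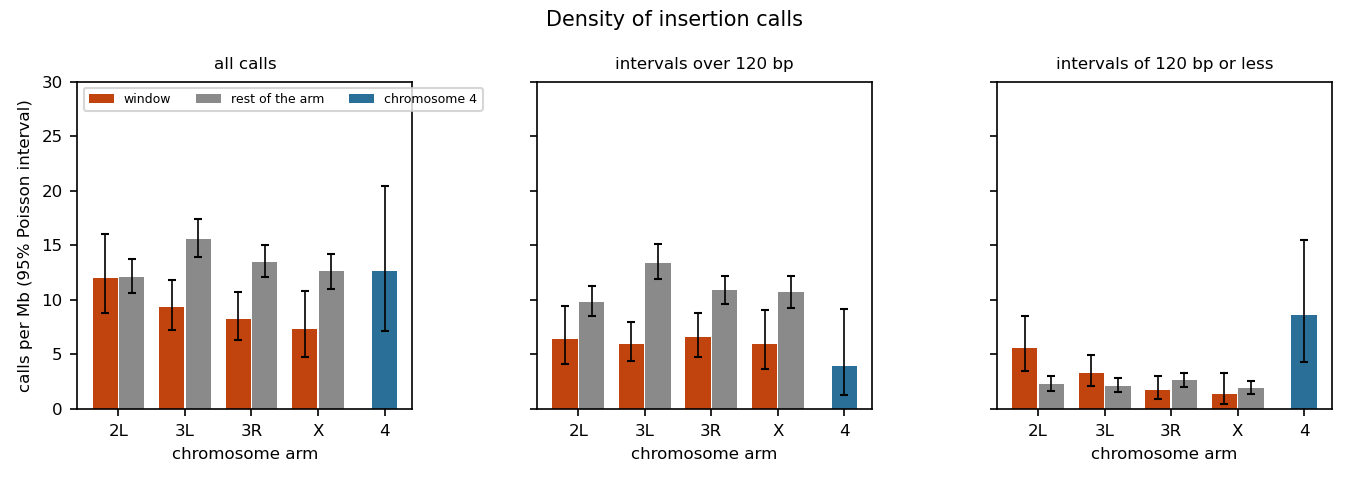
Calls per Mb (y axis, 95% Poisson intervals as bars) in the window and on the rest of each arm, and on chromosome 4, for all calls, for intervals over 120 bp and for intervals of 120 bp or less. Windows lie below the rest on 3L, 3R and X in the first panel, and chromosome 4 has 12.6 calls per Mb there but 3.93 and 8.65 calls per Mb in the other panels.

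The calls just inside them were a *jockey* (2L, ratio 0.5), an *F-element* (3L, 0.3), a *pogo* (3R, 1.0) and a *roo* (X, 5.6). The calls just outside were a *flea* (2L, 0.3), a *297* (3L, 1.2), a *Doc* (3R, 0.8) and a *roo* (X, 3.8).

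With the 4 arms pooled, the share of calls that reached a ratio of 3 was close to that of the rest, while it was higher on 2L and lower on 3R. Of the window calls, 35 of 201 (17.4%, 12.4 to 23.4) had a ratio of at least 3, against 201 of 1144 (17.6%, 15.4 to 19.9) on the rest of the arms. Over all calls of these 5 chromosomes the share was 17.4%. The difference was -0.157 percentage points (-5.32 to 6.05). At a ratio of at least 5 it was 3.29 points (0.252 to 7.78), with 6.97% of window calls and 3.67% of the rest. Most of those window calls lay on X and none lay on 3R, and this difference was not split by arm. Among them were an *Ivk* without a merged call and an overlapping *mdg1* and *1360*, all described below. The median ratio was 1.1 (0.8 to 1.5) in the windows and 0.9 (0.8 to 1.0) on the rest of the arms. The X window had the highest median, 3.35 (0.5 to 5.4), against 1.7 (1.3 to 2.1) on the rest of X, and the 3R window had 1.25, against 0.8 on the rest of 3R. Supporting reads had a median of 43 in the windows and 36 on the rest of the arms, and reference reads 38.1 and 38.

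By arm, the X window held the highest share past 3, with 14 of 26 calls (53.8%), against 87 of 251 (34.7%) on the rest of X. The difference was 19.2 points, and its interval reached 0 (-0.182 to 37.5). The 2L window had 12 of 47 calls (25.5%), against 27 of 236 (11.4%) on the rest of 2L, a difference of 14.1 points (2.79 to 28.5). The 3L window had 9 of 70 (12.9%), against 59 of 319 (18.5%), a difference of -5.64 points (-13.2 to 4.91). The 3R window had 0 of 58, with an interval that reached 6.16%. The rest of 3R had 28 of 338 (8.28%), a difference of -8.28 points (-11.7 to -1.59). Merged reads gave 13 of 41 calls past 3 in the 2L window, 9 of 57 in that of 3L, 0 of 50 in that of 3R and 14 of 24 in that of X, against 20.2% of all calls of that list on the 5 chromosomes.

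**Figure D2:**
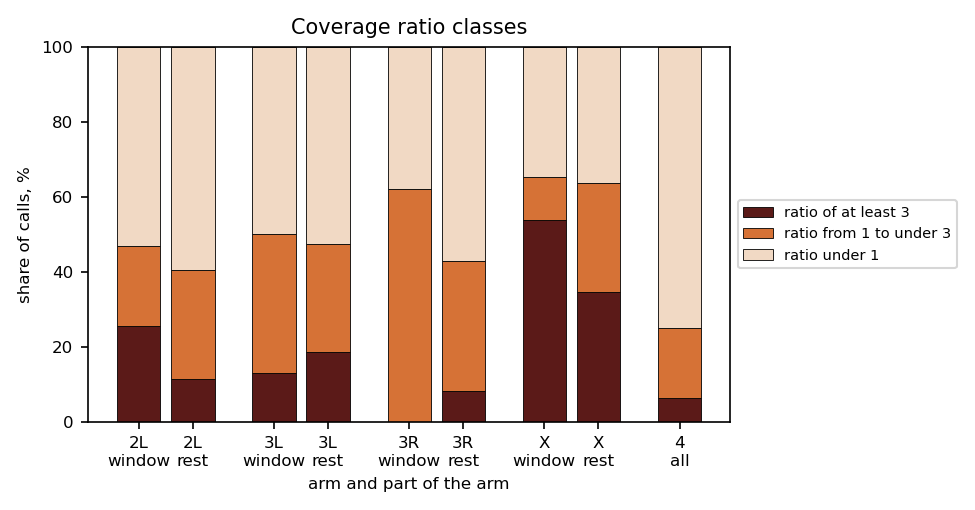
Share of calls (y axis, %) with a coverage ratio of at least 3, from 1 to under 3 and under 1, in the window and on the rest of each arm, and on chromosome 4. The 3R window has no call of at least 3 and 62.1% of its calls from 1 to under 3, while 53.8% of the X window calls reach 3.

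The 3R window was filled with calls of middling ratio. Of its 58 calls, 36 (62.1%) had a ratio from 1 to under 3, against 117 of 338 (34.6%) on the rest of 3R, a difference of 27.5 points (13.6 to 39.8). The highest ratio in it was 2.6, of a *hopper* at 5822114 in the gene *Sec20*, which codes for a SNARE protein. Since no call of this window reached 3, those with many reads could not either. In the 3R window 34 calls had at least 40 supporting reads, and their ratios ran from 0.8 to 2.6 with a median of 1.7. In the windows of 2L, 3L and X 72 calls had that many reads, with a median ratio of 2.75, and 34 of them reached 3. On the rest of 3R 146 calls had that many reads, with a median ratio of 1.9, close to that of the 3R window, and 27 of them reached 3. The rest of 3R began in the same way: the first call of at least 3 was a *roo* at 9883593 with a ratio of 9.0, and the 93 calls before it, window calls included, were all below 3. The limit of 40 reads was chosen after the values were seen. The 3R window calls were also unevenly spread, with 50 calls in the 2.6 Mb next to the edge (19.2 per Mb) and 8 in the 4.4 Mb next to the centromere (1.82 per Mb). The cut between these stretches lies in the gap between calls at 4190829 and 4416284. It was placed with the calls in view, so the size of this contrast partly reflects the cut.

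On 3L and X the calls past 3 were bunched. On 3L all 9 lay between 22106682 and 22935635, and none of the 29 calls nearer the centromere reached 3. The highest among those 29 were an *HMS-Beagle2* at 23840338 with a ratio of 2.5 in the gene *CG40470* and a *412* at 22948590 with 2.5 in *Mes2*. On X the 14 calls past 3 lay between 20037741 and 21322678, and none of the 9 calls nearer the centromere went above 1.0. On 2L they were spread over the window, and the last, an *S-element* at 23313603 with a ratio of 3.6, was also the call nearest the centromere.

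**Figure D3:**
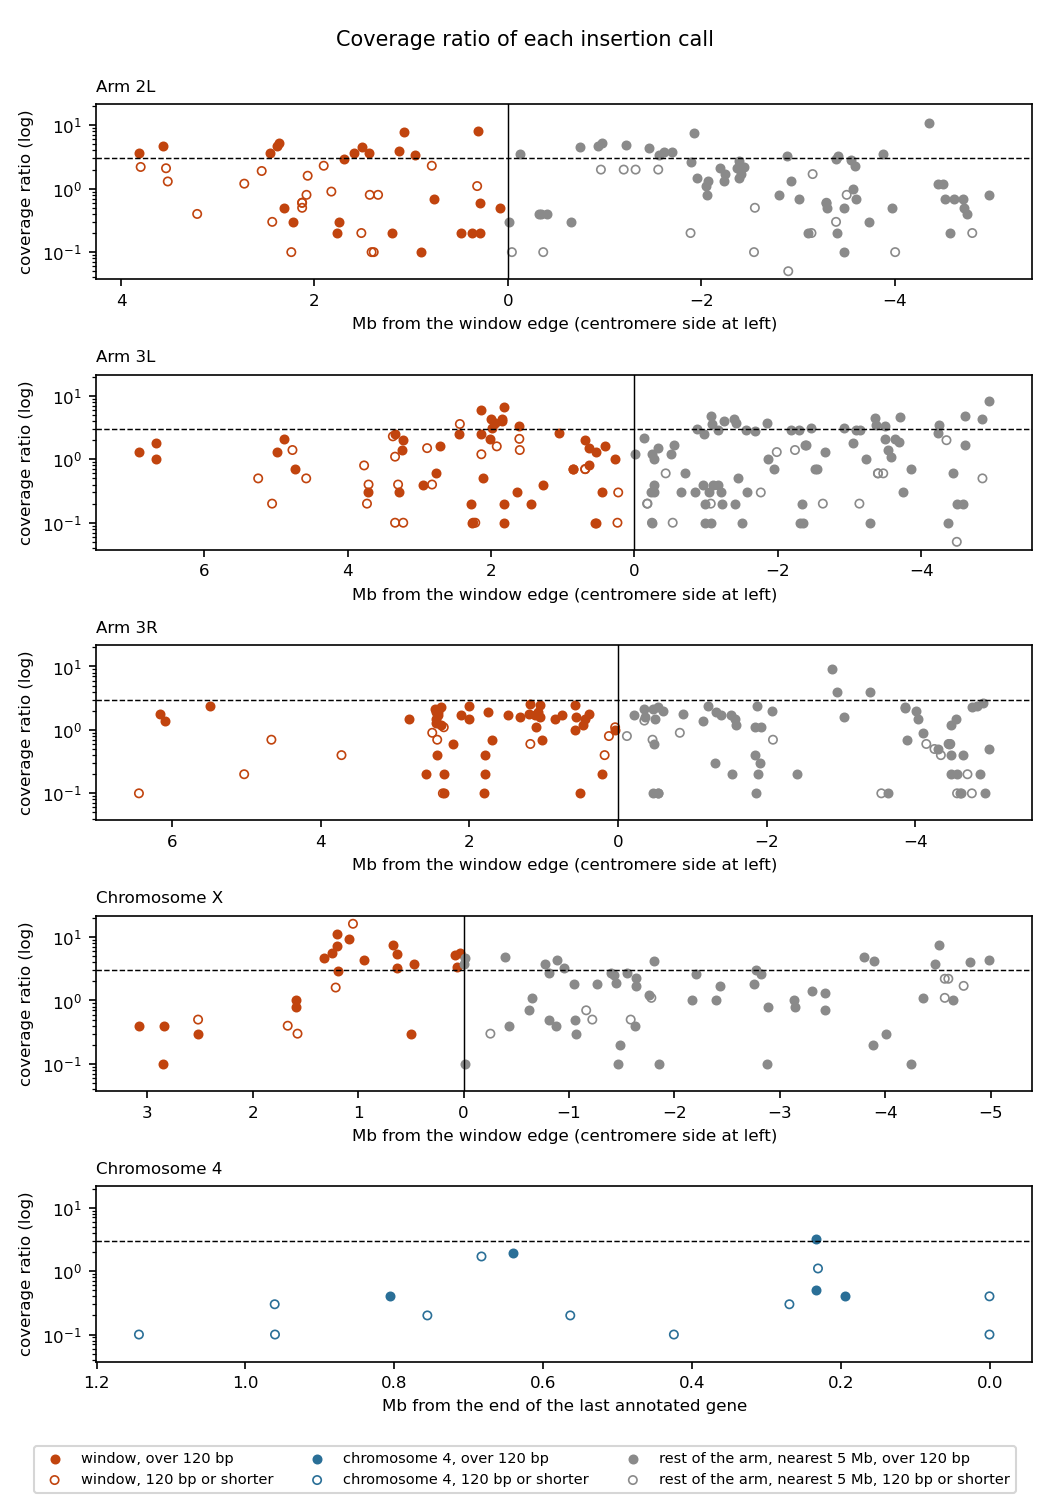
Coverage ratio (log axis) of each window call and of the calls within 5 Mb outside the window, by distance from the window edge with the centromere side at left, and of each chromosome 4 call by distance from the end of the last annotated gene. Filled points are intervals over 120 bp, open points are shorter, the dashed line is a ratio of 3, and a listed ratio of 0 is drawn at 0.05. No point of the 3R window passes the line, and calls thin out toward the centromere on 3L, 3R and X.

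The members past 3 were 36 calls of 25 families, and 34 of them also reached 3 in merged reads. Of these, 20 were LTR retrotransposons, which move through an RNA copy and carry long terminal repeats. The others were 8 DNA transposons with inverted ends and 8 non-LTR retrotransposons, and 15 of the 36 lay in an annotated gene. The interval of a ratio comes from the Poisson error of the supporting reads, with the reference reads taken as fixed.

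On 2L the 5 highest ratios past 3 in both lists were these. A *copia* at 19806506 to 19806777 had 146 supporting and 16.9 reference reads and a ratio of 8.2 (6.89 to 9.59), in an intron of *sick*, which codes for a cytoskeletal regulator. An *opus* at 20570713 to 20570945 had 89 supporting reads and a ratio of 7.7 (6.22 to 9.52), within *lncRNA:CR45347*. A *Burdock* at 21863291 to 21863497 had 103 supporting reads and a ratio of 5.3 (4.33 to 6.44), within *lncRNA:CR44917*. An *I-element* at 21884441 and a *1360* at 23068773 both had a ratio of 4.7, with intervals of 4.01 to 5.57 and 4.0 to 5.55. Both were annotated as lying between genes, and the interval of the *1360* reached the edge of *lncRNA:CR43242*.

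On 3L the highest was a *Stalker2* in an intron of *Ten-m*, a teneurin that matches synaptic partners, at 22314453 to 22314700, with 152 supporting and 22.2 reference reads and a ratio of 6.6 (5.55 to 7.68). A *Juan* at 22638700 had a ratio of 6.0 (5.02 to 7.04) between genes. A *hobo* in *Ten-m* at 22347018 and a *jockey* between genes at 22497914 both had 4.3, and a *copia* in *Ten-m* at 22345902 had 4.0 (3.41 to 4.76). *Ten-m* therefore held 3 of these 5 calls. The *F-element* at 22935635 was the one call past 3 in both lists with an interval under 120 bp. It had a ratio of 3.6 with single-end reads and 9.8 with merged reads.

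On X the highest ratio in both lists was that of an *mdg1* at 21205063 to 21205288, with 138 supporting and 11.2 reference reads and a ratio of 11.3 (9.50 to 13.4). It overlapped a *1360* call at 21204898 to 21205158 with 111 reads and a ratio of 7.2 (5.89 to 8.62), and the pair is counted below as 1 site. An *mdg3* at 21087539 had 9.2 (7.23 to 11.5) with single-end reads and 4.8 with merged reads. An *S-element* at 20672599 had 7.5 (6.17 to 9.03) in an intron of *hydra*. A *roo* at 20037741 had 5.6 (4.67 to 6.57) in an intron of *Dop2R*, a dopamine receptor gene, and a *blood* at 21249042 had the same ratio in an intron of *Mnr*. The highest ratio of all 217 calls, 16.2 (10.6 to 23.8), belonged to an *Ivk* at 21049430 to 21049525. It rested on 26 supporting reads, 24 of them on one side, and 0.6 reference reads, and merged reads gave no *Ivk* call there. A *Quasimodo* at 22106682 on 3L fell below 3 with merged reads, with 3.3 single-end and 2.3 merged. Rising past 3 with merged reads were a *297* in *Ret* on 2L (2.9 single-end, 3.1 merged), a *pogo* at 22518922 on 3L (2.1 and 3.1) and a *Quasimodo* at 21195444 on X (2.9 and 4.1), named after their values were seen.

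The makeup of the calls by TE family differed from that on the rest of the arms for a few families. The rule below took the 10 families with most window calls, and a 4-way tie at 6 calls left *hopper* out by alphabetical order. Each difference has its 95% interval and, where this excludes 0, a 99.5% interval that allows for the 10 families. The 10 were picked from 58 families by their window counts, which also enter each difference. Neither interval allows for this choice, which favours families with a high window share. *roo*, an LTR element and the commonest family on the rest of the arms, made up 16 window calls (7.96%), against 225 (19.7%) on the rest of the arms. The difference was -11.7 points (-15.6 to -6.63, and -17.0 to -3.99 over 10 families). *1360*, a DNA transposon with inverted ends that is abundant in heterochromatin, made up 10 window calls (4.98%), against 13 (1.14%), a difference of 3.84 points (1.45 to 7.81, and 0.715 to 10.1 over 10 families). *INE-1*, an old and short rolling-circle element (a Helitron), made up 6 window calls (2.99%), against 4 (0.35%), a difference of 2.64 points (0.935 to 6.02, and 0.448 to 8.17 over 10 families). In merged reads *INE-1* had 3 window calls (1.74%), against 5 (0.498%), and the interval of the difference, 1.25 points, held 0 (-0.0795 to 4.52). Of the 6 single-end window calls 5 were short intervals, against 0 of 4 on the rest of the arms.

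**Figure D4:**
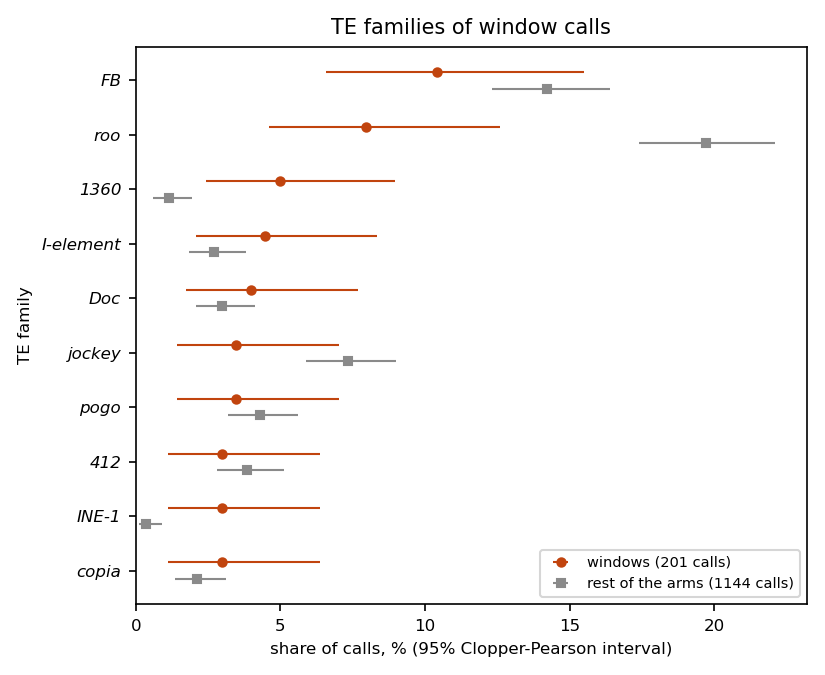
Share of calls (x axis, %, with 95% Clopper-Pearson intervals) of the 10 families with most window calls, in the windows and on the rest of the 4 arms. *roo* lies lower in the windows (7.96% against 19.7%), and *1360* (4.98% against 1.14%) and *INE-1* (2.99% against 0.35%) lie higher.

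*FB*, the foldback element, was the commonest family in the windows with 21 calls (10.4%), against 163 (14.2%), a difference of -3.80 points (-7.92 to 1.55). Its window calls had low ratios, with a median of 0.2 and a highest value of 2.1, against a median of 0.5 on the rest of the arms. *jockey*, a non-LTR element, made up 7 calls (3.48%), against 84 (7.34%), a difference of -3.86 points whose interval excluded 0 alone (-6.30 to -0.0722) but not over 10 families (-7.18 to 2.17). The intervals of *I-element* (9 window calls, 4.48% against 2.71%), *Doc* (8, 3.98% against 2.97%), *pogo* (7, 3.48% against 4.28%), *412* (6, 2.99% against 3.85%) and *copia* (6, 2.99% against 2.10%) all held 0. *hopper*, with 6 calls (2.99% against 1.31%), did too. *Tabor*, an LTR element singled out after its values were seen, had 5 window calls and 3 on the rest of the arms. Its window ratios ran from 0.2 to 1.9.

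By class, LTR elements made up 96 of the 201 window calls (47.8%), against 615 of 1144 (53.8%), a difference of -6.00 points (-13.4 to 1.47). Non-LTR retrotransposons made up 43 (21.4%), against 225 (19.7%), and DNA transposons with inverted ends 56 (27.9%), against 300 (26.2%). Together the 217 calls came from 60 families. Of those, 13 had their only call of the whole list here, each with 1 call. Most of these calls were of the short kind described next. Among them were the overlapping calls of *HeT-A* and *TAHRE*, retrotransposons that build the fly's telomeres. How many families had their only call elsewhere was not counted, so the 13 cannot be read as a trait of these calls.

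Calls with short intervals made up a larger share of the calls here than elsewhere. Short means an interval of at most 120 bp, a limit set after the widths were seen. Of the window calls, 64 of 201 (31.8%) were short, against 192 of 1144 (16.8%) on the rest of the arms, a difference of 15.1 points (8.60 to 22.1). Over all calls of the 5 chromosomes the share was 19.6%. The 2L window held 22 of 47 short calls (46.8%), against 44 of 236 (18.6%), and the 3L window 25 of 70 (35.7%), against 44 of 319 (13.8%). The 3R window held 12 of 58 (20.7%), against 66 of 338 (19.5%), and the X window 5 of 26 (19.2%), against 38 of 251 (15.1%). Among short window calls 42 of 64 spanned as many bases in the TE as in the genome, within 15 bp, and among longer ones 8 of 137 did. On the rest of the arms 157 of 192 short calls and 47 of 952 longer ones did.

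Short calls had lower ratios. Their median ratio was 0.7 in the windows, against 1.5 for longer window calls, and 2 of 64 reached 3, against 33 of 137. Of the short window calls 43 (67.2%) were also found with merged reads, against 125 (91.2%) of the longer ones. Short calls on the rest of the arms were alike, with a median ratio of 0.5, against 1.1 for longer ones. There 6 of 192 reached 3, against 195 of 952, and 139 (72.4%) were found with merged reads, against 848 (89.1%). *Doc* (10 of its 11 calls among the 217), *F-element* (6 of 6), *1360* (6 of 12) and *INE-1* (5 of 6) had the most short calls among the 217. On the rest of the arms *Doc* had 34 short calls of 34 and *jockey* 59 of 84, while *1360* had 2 of 13 and *INE-1* 0 of 4. With intervals over 120 bp alone, the density of window calls was 0.557 times that of the rest (0.462 to 0.667), and that of the 2L window 0.648 times (0.409 to 0.987). Short calls were 1.29 times as dense in the windows as on the rest of the arms, with an interval that held 1 (0.957 to 1.72). By arm this ratio was 2.49 on 2L (1.42 to 4.24) and 1.55 on 3L (0.909 to 2.59). On 3R it was 0.651 (0.32 to 1.21) and on X 0.744 (0.228 to 1.89). Whether short intervals mark insertions of the same kind as the longer ones was not tested.

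Both lists held 168 of the 201 window calls (83.6%), against 987 of 1144 (86.3%), a difference of -2.69 points (-8.73 to 2.26). The share over all calls of the 5 chromosomes was 85.9%. With chromosome 4 included, 182 of 217 calls had a partner of the same family in merged reads, and 169 of these stayed in the same class of ratio (under 1, from 1 to under 3, at least 3). Of the 35 without a partner 23 were short, and their median was 9 supporting reads. At 7 sites 2 calls of different families overlapped, in 3 of them *hopper* with *hopper2*, so that the 217 calls stood for 210 separate sites.

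Window calls lay inside genes less often than calls elsewhere, and the windows also have less gene sequence. Of the window calls 124 of 201 (61.7%) overlapped an annotated gene, against 804 of 1144 (70.3%) on the rest of the arms, a difference of -8.59 points (-15.9 to -1.60). With intervals over 120 bp alone the difference was -6.36 points and its interval held 0 (-15.1 to 1.68). Over all calls of the 5 chromosomes the share was 69.3%. Genes covered 55.5% of the window length, against 73.8% of the rest. In the windows the share of calls in genes was thus above gene cover, though its interval held that cover (54.6 to 68.4). On the rest of the arms the share was below gene cover (67.5 to 72.9). On X the shares were 13 of 26 (50.0%), against 207 of 251 (82.5%), a difference of -32.5 points (-50.9 to -13.8), and genes covered 45.3% of the X window, against 79.8% of the rest of X. On 3R the window share was 43 of 58 (74.1%), against 235 of 338 (69.5%), with genes over 69.8% of the window and 73.6% of the rest. On 2L it was 28 of 47 (59.6%), against 152 of 236 (64.4%), with gene cover of 55.8% and 70.4%. On 3L it was 40 of 70 (57.1%), against 210 of 319 (65.8%), with gene cover of 46.8% and 71.4%. Among calls of a ratio of at least 3, 40% of 35 window calls were inside genes, against 69.7% of 201 on the rest of the arms, a difference of -29.7 points (-45.3 to -11.9). This difference allows for neither gene cover nor arm. The 3R window, which had the highest gene cover of the windows, supplied 0 of the 35, and the rest of 3R supplied 28 of the 201.

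The 217 calls touched 91 genes, of which 33 held 2 or more calls and 4 held 5. The matching counts were not made for the rest of the arms. Overlapping genes share calls, and genes such as *Sec20* and *Cadps* reached 2 only through overlapping calls at a single site. *Ten-m* held 5 calls on 3L: a *roo* with a ratio of 0.2, a *Stalker2* with 6.6, a *hobo* with 0.1, a *copia* with 4.0 and a second *hobo* with 4.3. Its ratios thus lay either at 4.0 and above or at 0.2 and below. *side-III*, a cell-surface immunoglobulin gene of 3R, held a *3S18* (1.7), a *Quasimodo* (1.1), a *Tabor* (1.9), a *roo* (2.5) and a *blood* (1.6). *CG34357* of 3R held an *Fw2* (0.9), a *297* (2.1), a *1731* (1.5), a *Juan* (1.9) and a *Bari1* (1.3). *Myo81F*, a myosin gene that spans 1970 kb of 3R heterochromatin, held a *Tabor* (1.8), an *R1A1-element* (1.4), a *Max-element* (2.4), an *FB* (0.2) and an *HMS-Beagle2* (0.7). The deposited annotation instead placed the *R1A1-element* in *CG42621* and the other calls of *Myo81F* between genes. The 15 calls of these 3 genes of 3R had ratios between 0.2 and 2.5, and none repeated a family within a gene.

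**Figure D5:**
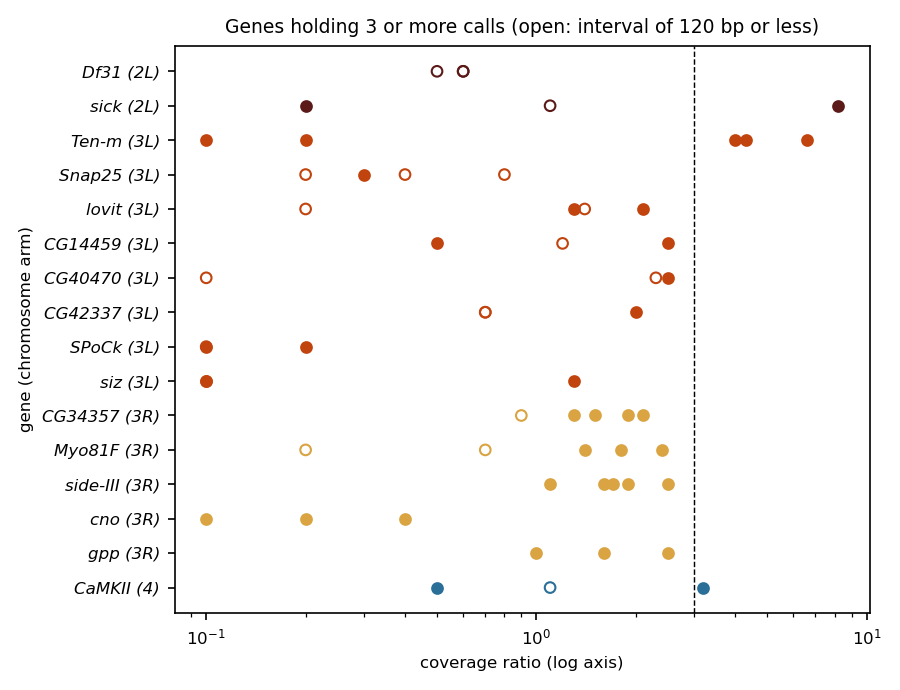
Coverage ratio (log axis) of each call in the 16 genes that hold 3 or more of the 217 calls, with the arm in brackets, filled points for intervals over 120 bp, open points for shorter ones and a dashed line at 3. Past the line lie 3 calls of *Ten-m*, 1 of *sick* and 1 of *CaMKII*, and none in the 5 genes of 3R.

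*Snap25* and *lovit* of 3L held 4 calls each. *Snap25*, which codes for a SNARE protein of synaptic vesicle fusion, held a *17.6* (0.4), a *flea* (0.3), an *S-element* (0.2) and a *gypsy11* (0.8), of which 3 were short. *lovit*, a transporter needed for visual transmission, held a *1360* (1.4), a *roo* (2.1), a *copia* (1.3) and a *Tabor* (0.2). The next count makes no allowance for gene length. *Myo81F* spans 1970 kb and *Snap25* 225 kb, against median gene lengths of 1.02 to 1.75 kb by window. Of the 25 listed genes in or beside PCH, 5 held a call, against 80 of all 1688 genes of the windows. Beside *Snap25* and *Myo81F* these were *fog*, a signal for cell shape change in the embryo with 2 *FB* calls (0.4 and 0.1) inside both it and *CG42346*, *alpha-Cat*, the cadherin-actin linker with a *Quasimodo* (0.4), and *Dbp80*, an RNA helicase gene with an *mdg1* (1.3).

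Genes with 3 calls were *sick* and *Df31* on 2L, *siz*, *SPoCk*, *CG14459*, *CG42337* and *CG40470* on 3L, *cno* and *gpp* on 3R and *CaMKII* on chromosome 4. *cno*, which ties adherens junctions to actin, held 3 *FB* calls with ratios of 0.1, 0.4 and 0.2. *gpp*, the methyltransferase of lysine 79 of histone H3, held an *FB* (1.0), an *S-element* (2.5) and a *3S18* (1.6). *Df31*, a gene of 3.62 kb for a chromatin decondensation factor, held 2 *Max-element* calls (0.6 each) and a *Doc* (0.5), all short and with the *Doc* overlapping a *Max-element*. *SPoCk*, a calcium pump of the secretory pathway, and *siz*, an exchange factor for Arf GTPases, held calls of 0.1 to 0.2 and of 0.1 to 1.3. In *CG14459* and *CG42337* 2 of the 3 calls were an overlapping *hopper* and *hopper2*.

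The genes with 2 calls were *CdGAPr*, *CG42238* and the overlapping *CG43739* and *sky* on 2L, *nAChRalpha4* on 3L, *5-HT2A*, *smash*, *plh*, *Antp* and the overlapping *Sec20* and *CG46303* on 3R, *fog*, *CG42346*, *CG17600* and *Mnr* on X, and *Zip102B* and *Cadps* on chromosome 4. In *Antp*, the homeotic gene of the thorax, an *F-element* had a ratio of 1.1 and a *pogo* 1.0. In *5-HT2A*, a serotonin receptor gene, a *297* had 1.2 and a *blood* 2.3. In *CG42238* a *roo* had 4.5 and an *FB* 0.2. *lncRNA:flam*, the X-linked piRNA cluster known for silencing *gypsy* elements, held 1 call, a *gypsy2* at 21667916 with a ratio of 0.4 (0.234 to 0.642). It is named here for its function, after its value was seen.

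Chromosome 4 had 16 calls, mostly of short interval and nearly all inside genes. Its density was 12.6 calls per Mb (7.19 to 20.4), against 13.4 on the rest of the 4 arms, a ratio of 0.936 (0.533 to 1.53). Of the 16 calls 11 (68.8%) were short, against 192 of 1144 (16.8%), a difference of 52.0 points (27.5 to 69.2). The 5 longer calls gave 3.93 per Mb, 0.351 times the density on the rest of the arms (0.114 to 0.823). Inside genes lay 15 of the 16 (93.8%), against 70.3%, a difference of 23.5 points (1.24 to 29.3), where genes cover 83.7% of the chromosome. The median ratio was 0.35, with 1 of 16 calls past 3 (6.25%, 0.158 to 30.2), against 17.6% on the rest of the arms, a difference of -11.3 points (-17.0 to 10.9). Ratios under 1 made up 12 of 16 (75%), against 51.7%, a difference of 23.3 points (-1.42 to 38.4), so neither interval excluded 0. The median of its reference reads was 56.45, against 38 on the rest of the arms.

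The one call past 3 was a *pogo* at 1038373 to 1038603 in *CaMKII*, a calcium-dependent protein kinase gene known for synaptic plasticity. It had 103 supporting and 31.3 reference reads and a ratio of 3.2 (2.6 to 3.87), and 4.3 with merged reads. *CaMKII* also held a *blood* at 1038879 with 0.5 and a *roo* at 1041060 with 1.1 (0.854 to 1.45). A *roo* at 631306 to 631539 in *Gat*, the GABA transporter gene, had 62 supporting reads, 59 of them on one side, and a ratio of 1.9 (1.45 to 2.42). A *Doc* at 588992 in the 3′ UTR of *CG1909* had 76 supporting reads and 1.7 (1.33 to 2.11). Merged reads added an *INE-1* at 828948 in *Sox102F*, a Sox transcription factor gene, with 26 supporting reads and 1.7 (1.12 to 2.52), which had no single-end call.

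The other chromosome 4 calls had ratios from 0.1 to 0.5. An *S-element* in *Taf3*, a subunit gene of the general transcription factor TFIID, had 0.4, and the one call between genes was a *Doc* at 847425 with 0.1. Of 39 matched genes in the list of known chromosome 4 genes, 7 held a single-end call, *Gat* among them. Of all 114 genes of the chromosome 11 did, and gene length was not allowed for. *ey* and *toy*, the Pax6 genes of eye development, held an *F-element* (0.2) and a *roo* (0.3), each in an intron. *zfh2*, a zinc finger homeodomain gene, held a *Doc* (0.2), *Ank*, an ankyrin gene, a *gypsy* (0.1), and *Actbeta*, a TGF-β ligand gene, a *roo* (0.4). *Zip102B*, a zinc transporter gene, held 2 *1360* calls with 0.3 and 0.1. *Cadps*, which primes dense-core vesicles and is the last annotated gene before the chromosome's right end, held overlapping *HeT-A* (0.4) and *TAHRE* (0.1) calls. Those started at 1271454 and 1271458, and the gene ends at 1271759. Their reference reads, 96.3 and 96.4, were the highest on the chromosome.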

How the data were processed

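Whole-genome DNA libraries of 3 replicates were pooled by the authors, quality filtered with Trim Galore (named in the submitters' processing notes; version not given in the sources used here) and searched for insertions with TIDAL at its default settings, once with paired reads treated as single-end and once with SeqPrep-merged reads. In the deposited lists, supporting reads are counts, reference reads are a normalized signal whose scaling is not stated, the coverage ratio is a ratio that matched supporting reads over reference reads plus 1 within 0.05 in 217 of 217 calls, and the deposited BLAT score and the fraction of reads on one side were read but not tested. Deposited positions, widths and gene annotations are used as given. RefSeq gene bodies of Release 6 gave gene overlap. No calls were filtered.

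Densities carry exact Poisson intervals, their ratios exact conditional intervals, shares Clopper-Pearson intervals, differences of shares Newcombe intervals and medians order-statistic intervals, computed in Python 3.11.15 with numpy 2.4.6, pandas 2.3.3 and scipy 1.17.1 (plots: matplotlib 3.10.9) and tested on simulated data. A call in the other list matched if it had the same family and overlapped by at least 1 bp. With 1 pooled set there is no test across replicates. Calls named are chromosome 4 calls with a ratio of at least 1, the 5 highest per arm past 3 in both lists, window calls past 3 in one list only, the 10 commonest families, genes with 2 or more calls and listed genes with a call. The members, lists and tests were chosen with earlier results of these data known. TE sequences are not printed, since no genome sequence was used here.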

Additional observations from a re-analysis of the deposited data

Results flagged for a closer look

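The contrast between window and rest differed between arms, by an interval of the difference that excluded 0, in 10 of 18 comparisons (6 pairs of arms by 3 measures, intervals not adjusted for their number). In the share of calls whose ratio reached 3, the difference on 2L exceeded that on 3L by 19.7 percentage points (4.27 to 36.0) and that on 3R by 22.4 points (9.24 to 37.2), and the differences on 3L and 3R minus that on X came to -24.8 points (-44.6 to -2.77) and -27.5 points (-46.1 to -6.98). For the share of short intervals, the difference on 2L exceeded those on 3R and X by 27.0 points (7.71 to 44.5) and 24.1 points (0.108 to 42.9), and that on 3L exceeded that on 3R by 20.8 points (3.94 to 36.3). For the density ratio on the log2 scale, 2L exceeded 3L by 0.728 (0.114 to 1.33), 3R by 0.690 (0.0591 to 1.32) and X by 0.760 (0.000778 to 1.55).

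Outside the comparisons, 4 calls lay on the Y chromosome in DNA of females, which carry no Y: a *1360* with 15 supporting reads, a *G2* with 35, a *G5* with 15 and a *roo* with 8. The *1360* and the *roo* had 0 reference reads and listed ratios of 15 and 8.0.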

How the results depend on the processing

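In 96 alternatives over 8 results, 79 values stayed within the main 95% interval. The density of window calls stayed below that of the rest in 14 of 14 (0.557 to 0.992), with an interval below 1 in 13. It was 0.992 on 2L alone, and 0.557 with intervals over 120 bp, a setting chosen after seeing the data. The density ratio of chromosome 4 moved to 0.485 with a coverage ratio of at least 1, to 0.333 with at least 3 (1 call), and to 0.351 over 120 bp. The share past 3, window minus rest, was 14.1 points on 2L alone, -5.64 on 3L, -8.28 on 3R and 19.2 on X. At a threshold of 5 in place of 3 it was 3.29 points (0.252 to 7.78), which excluded 0 where the main interval did not. Most window calls that reached 5 lay on X. The median ratio on X alone was 3.35. The share inside genes reversed on 3R alone (4.61 points, interval -8.75 to 15.4) and was -32.5 points on X alone and -29.7 points among calls of at least 3. Its interval stayed below 0 in 11 of 15 alternatives, the exceptions being 2L, 3L and 3R alone and intervals over 120 bp (-6.36 points, -15.1 to 1.68). The excess in the share of short intervals was above 0 in 8 of 8 added alternatives. It was 28.2 points on 2L alone, 1.16 on 3R, 4.09 on X, and 7.04 where the span in the TE defined short intervals. The LTR share and the share found in both lists stayed within their main intervals in all alternatives run. The share in both lists, whose main interval held 0, was -5.30 points (-10.7 to -1.52) with at least 10 supporting reads and -5.48 points (-11.2 to -0.549) with edges 0.5 Mb farther from the centromere. Beyond the construction of each setting, the cause of these moves was not tested.

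Leaving out a replicate was not possible, since the replicates were pooled before calling, and a density per base outside repeat-masked sequence was not run without a genome. No paired analysis was possible because the pooled lists hold 1 group and no replicate. Each call had at least 4 supporting reads, and the order of calls with few reads is uncertain.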
